A study of Homo sapiens with 4 samples.

Results

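The mitochondrial ribosomal protein genes were taken as all genes whose symbol in the array's probe annotation starts with MRPL or MRPS followed by a number. The annotation listed 77 such symbols. Of these, 73 had a probe set of their own and 4 shared a probe set with another gene, out of 18417 genes with a probe set of their own in all. The pseudogene MRPS31P5 and the gene KGD4, formerly MRPS36, were kept apart. The study used 4 Affymetrix Human Gene ST arrays to find genes that respond to atovaquone, a hydroxynaphthoquinone antimalarial drug that blocks electron transfer at the cytochrome bc1 complex of parasite mitochondria. U266, an established multiple myeloma line, received the vehicle DMSO or 15 µM atovaquone for 2 h. K562, an established chronic myeloid leukemia line, received DMSO or 20 µM atovaquone for 5 h. No other agent or genetic change is named for any group, and each group was 1 array of 1 cell line.

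The mitochondrial ribosome translates the few messages encoded by mitochondrial DNA, all of which make core subunits of the respiratory chain and ATP synthase. Its ribosomal RNAs come from mitochondrial DNA, whereas all of its proteins are encoded in the nucleus, made in the cytosol and imported. Proteins of the large subunit lie on the peptidyl transferase side, along the exit tunnel and in the central protuberance. Proteins of the small subunit lie near the messenger and the decoding site. Some members have counterparts in bacteria, and others are found only in mitochondrial ribosomes. A few symbols do not match their position, since MRPS30 and MRPS18A encode proteins of the large subunit.

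Array medians were 339 and 340 for the U266 vehicle and atovaquone arrays and 314 and 319 for the K562 vehicle and atovaquone arrays. The intensity below which a probe set was not counted as measured, each array's 40th percentile, lay between 305 and 331. A gene at or above it on both arrays of a comparison was called measured, and where 1 of the arrays lay under it the fold is a limit, given in the form "at least N-fold". Log2 ratios were centred on the median of all measured probe sets, which moved them by 0.025 at most. Without replicates there is no test and no p-value here, and genes were counted past fixed folds beside the share of all genes past the same fold. As a guide to the spread within an array pair, a single probe set's log2 ratio had an SD of 0.106 in U266 (352 genes with more than 1 probe set), 0.115 in K562 (370 genes) and 0.37 between the vehicle arrays (315 genes). This SD was derived from how far apart the ratios of different probe sets of the same gene lay, and is not the SD of ratios over those genes. That spread leaves out the spread between cultures. The lines carried their markers. The plasma cell genes SDC1, TNFRSF17, PRDM1, IRF4, JCHAIN and XBP1 were all higher in U266. The erythroid genes GATA1, HBZ, HBE1, RHAG and KLF1 were all higher in K562, and HBG1 had no value. In bulk RNA, fewer cells of a kind and less RNA per cell cannot be told apart.

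Promoter sequences are shown first for the members that later results turn on. RefSeq's promoter table for GRCh38.p14, with 250 bases before and 50 after each start, held 66 of the 73 members, in 82 promoters. MRPL18, the member with the highest atovaquone ratio in U266, shares a divergent promoter with TCP1, a subunit of the cytosolic chaperonin. The first line below runs from TCP1's start to the base before MRPL18's first start, with the CCAAT box in capitals. The other lines hold the heat shock element letters, in capitals, that lie just after the first and the second of MRPL18's 3 listed starts.
MRPL18, chr6:159789602-159789811, plus strand: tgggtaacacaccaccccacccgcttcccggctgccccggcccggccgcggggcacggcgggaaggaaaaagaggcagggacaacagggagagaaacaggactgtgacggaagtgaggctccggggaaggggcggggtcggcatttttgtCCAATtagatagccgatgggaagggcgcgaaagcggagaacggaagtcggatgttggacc
MRPL18 after the first start, chr6:159789818-159789841, plus strand: aagaggttGAACCTTCgcctcaaa
MRPL18 after the second start, chr6:159789870-159789893, plus strand: ctagtgccTTCTAGAAaaggttgt
The heat shock element was searched as TTCNNGAA or GAANNTTC on both strands, and 13.5% of all 35093 promoters and 14.6% of the member promoters held it. In MRPL18 the letters begin 14 bases after the first start and 11 bases after the second. They were in promoters of 11 member genes, and those other than MRPL18 had U266 log2 ratios between -0.03 and 0.16. A match is a description of letters only.

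MRPS12, whose K562 ratio was among the lowest, shares a divergent promoter with SARS2, the mitochondrial seryl-tRNA synthetase. The sequence from SARS2's start to the base before MRPS12's first start is shown because these neighbours differed in K562, and its CCAAT boxes are in capitals.
MRPS12, chr19:38930763-38930943, plus strand: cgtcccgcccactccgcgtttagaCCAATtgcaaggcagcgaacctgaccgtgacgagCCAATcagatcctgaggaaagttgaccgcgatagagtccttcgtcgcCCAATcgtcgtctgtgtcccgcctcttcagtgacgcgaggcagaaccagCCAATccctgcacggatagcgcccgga
The letters CCAAT, searched on both strands, were in 34.6% of all promoters and in 34.1% of the member promoters.

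The letters AAGATGGC, the core of the YY1 motif, on either strand were in 2.89% of all promoters and in 25.6% of the member promoters, from 19 genes. In 13 of these genes they lay within 30 bases of a start. The letters hold ATG, which is also the start codon, and overlap with the start of the coding sequence was not examined. The match therefore describes letters only and not a binding site. The windows below, of genes from several parts of the ribosome, show those letters in capitals shortly after the start.
MRPL45, chr17:38297170-38297199, plus strand: tttgcgggaacAAGATGGCagcccccatac
MRPL49, chr11:65122333-65122362, plus strand: cgtagcaggtaAAGATGGCagctaccatgt
MRPL50, chr9:101398577-101398606, minus strand: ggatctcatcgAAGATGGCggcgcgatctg
MRPS18B, chr6:30617852-30617881, plus strand: gggcgtacgtcAAGATGGCggcgtctgtat
MRPS30, chr5:44808949-44808978, plus strand: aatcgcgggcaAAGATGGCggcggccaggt
MRPS7, chr17:75261887-75261916, plus strand: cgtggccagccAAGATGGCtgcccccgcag
The ETS letters CCGGAAG were in 39.0% of the member promoters, from 29 genes, against 10.3% of all promoters. NRF1's CGCANGCG was in 19.5% against 10.1%, and the E-box CACGTG in 10.98% against 7.26%. The amino acid response letters TTGCATCA were in 0 member promoters and in 0.866% of all promoters. All were searched on both strands, and CACGTG reads the same on both. Over the 22179 promoters of protein-coding genes alone, the shares were 12.8% for ETS, 12.8% for NRF1 and 8.34% for the E-box. There AAGATGGC was in 3.53%, the heat shock element in 11.6%, CCAAT in 34.7% and TTGCATCA in 0.676%.

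After 2 h of atovaquone in U266, the members stayed close to their vehicle level apart from MRPL18. Of the 72 measured members, 1 was at least 1.2-fold higher and 1 at least 1.2-fold lower, which is 1.39% each, against 4.06% and 3.08% of all 10731 measured genes. At 1.5-fold the counts were 0 and 0, against 0.857% and 0.0932% of all genes. The median log2 ratio was -0.0045 for the members and -0.00012 for all genes. Above 0 lay 35 members, or 48.6%, against 49.96% of all genes. The SD over members was 0.127, and 0.107 without MRPL18, against 0.179 over all genes. The members were bright, with a median intensity of 1523 on each U266 array against array medians of 339 and 340. Shares and SDs, here and below, were not compared with genes of like intensity.

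MRPL18 encodes a protein of the central protuberance whose bacterial counterpart binds ribosomal RNA, and its transcript is also known to give a cytosolic form during heat stress that joins cytosolic ribosomes. Its intensity was 2187 with vehicle and 3258 with atovaquone in U266, and 2860 with vehicle and 2432 with atovaquone in K562. The U266 atovaquone array was thus the highest of the 4 and the U266 vehicle array the lowest. The log2 ratio in U266 was 0.58, a 1.4999-fold difference just under the 1.5-fold line, at percentile 99.1 of all measured genes, and with a lower floor it was past that line, at 0.59. In K562 the log2 ratio was -0.23. The next highest member in U266, MRPS22 of the small subunit, had a log2 ratio of 0.20.

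Several heat shock genes, named here after their values were seen, are given beside MRPL18, and all but HSPD1 in K562 had its signs in both lines. The chaperone gene DNAJB1 had log2 ratios of 2.23 in U266 and -0.83 in K562. The co-chaperone gene BAG3 had 1.95 and -0.48, and HSPH1 had 1.32 and -0.28. The mitochondrial chaperonin genes HSPD1 and HSPE1 had 0.49 and 0.35 in U266, and 0.04 and -0.14 in K562. The part of a heat shock response in the MRPL18 values was not tested. TCP1, across the shared promoter, had 0.14 in U266 and -0.07 in K562.

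**Figure D1:**
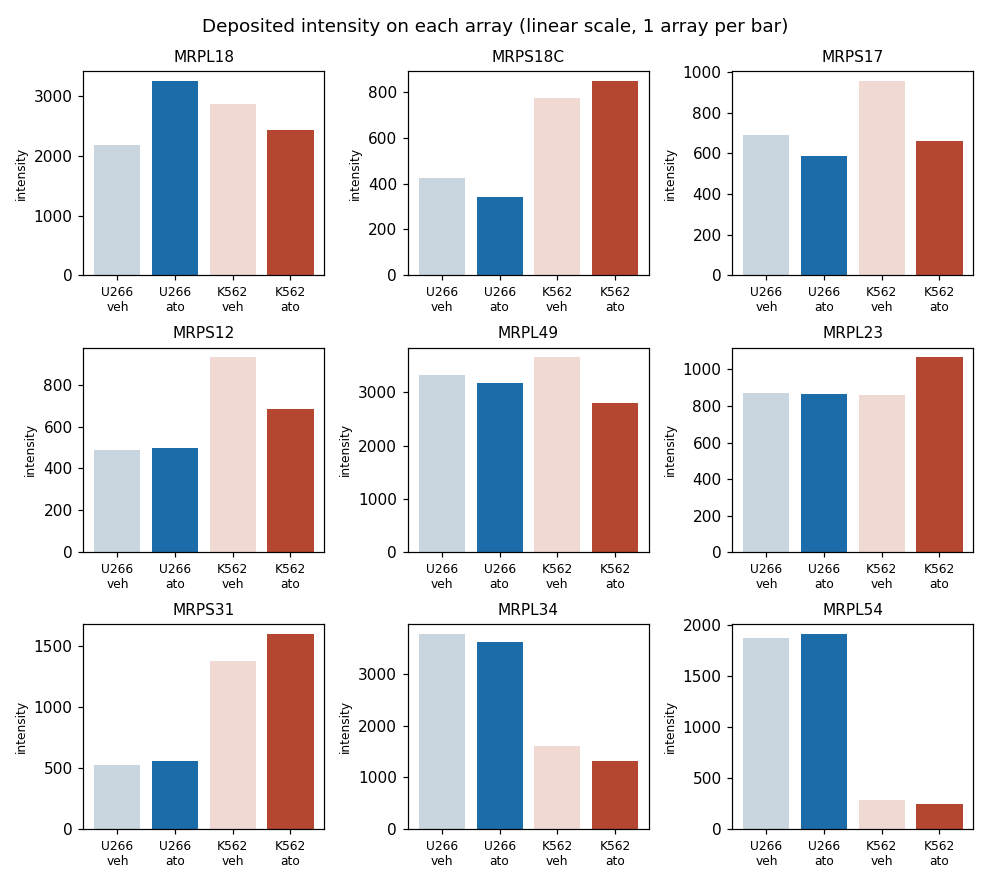
Deposited intensity (linear scale, from 0) of 9 members on each of the 4 arrays, 1 bar per array, with pale bars for vehicle and dark bars for atovaquone. MRPL18 goes from 2187 to 3258 in U266, MRPS17 from 959 to 663 in K562, and MRPL54 is 1869 in U266 vehicle and 286 in K562 vehicle.

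At the low end in U266, MRPS18C, a homologue of bacterial S18 in the small subunit, went from 425 to 341, a log2 ratio of -0.31, and was the only member past 1.2-fold in that direction. The atovaquone value lay close to the floor of 324. MRPS11, of the small subunit's platform, went from 3467 to 2922 and had a log2 ratio of -0.24. MRPS17, another small subunit protein shared with bacteria, went from 691 to 586 with -0.23. MRPL28 had -0.22, MRPL36 -0.19 and MRPS25 -0.17. Behind MRPL18 and MRPS22, the high end held MRPS35 at 0.16, MRPL45, which anchors the tunnel exit to the inner membrane, at 0.15, and MRPS5 and MRPS30 at 0.14 each. None of these passed 1.2-fold.

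After 5 h of atovaquone in K562, more members lay past 1.2-fold than in U266, yet their shares were below those of all genes. Of 72 measured members, 3 were at least 1.2-fold higher and 4 at least 1.2-fold lower, which is 4.17% and 5.56%, against 9.61% and 9.04% of all 10756 measured genes. At 1.5-fold the counts were 0 and 0, against 1.42% and 0.697% of all genes. The median log2 ratio was 0.016 for the members and -0.0057 for all genes. Above 0 lay 40 members, or 55.6%, against 48.8% of all genes. The SD over members was 0.166, against 0.231 over all genes.

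The lowest member in K562 was MRPS17, with 959 on the vehicle array and 663 on the atovaquone array, a log2 ratio of -0.53. MRPS12, the decoding-site protein, went from 930 to 685 with -0.44. MRPL49, a mitochondria-specific protein of the large subunit, went from 3659 to 2798 with -0.38. For MRPL34, a small protein shared with bacteria, the values were 1614 and 1310 and the log2 ratio was -0.30. MRPL50 just missed 1.2-fold, at 3933 and 3278 with -0.26, or 1.196-fold. In U266 MRPS12, MRPL49, MRPL34 and MRPL50 had log2 ratios between -0.06 and 0.04.

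At the high end in K562, MRPL23, at the tunnel exit, went from 862 to 1066, a log2 ratio of 0.31. MRPL48, of the central protuberance, went from 1547 to 1865 with 0.27. MRPL58, which is also a peptidyl-tRNA hydrolase that can free stalled chains, went from 1591 to 1904 with 0.26, or 1.201-fold. MRPL15 lay just under the line, at 1826 and 2183, or 1.1995-fold. MRPS9 and MRPS5 followed with log2 ratios of 0.26 and 0.24. MRPS9 was under the floor on both U266 arrays, and the U266 ratios of the other named members of this paragraph except MRPS5 lay between -0.06 and 0.02.

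**Figure D2:**
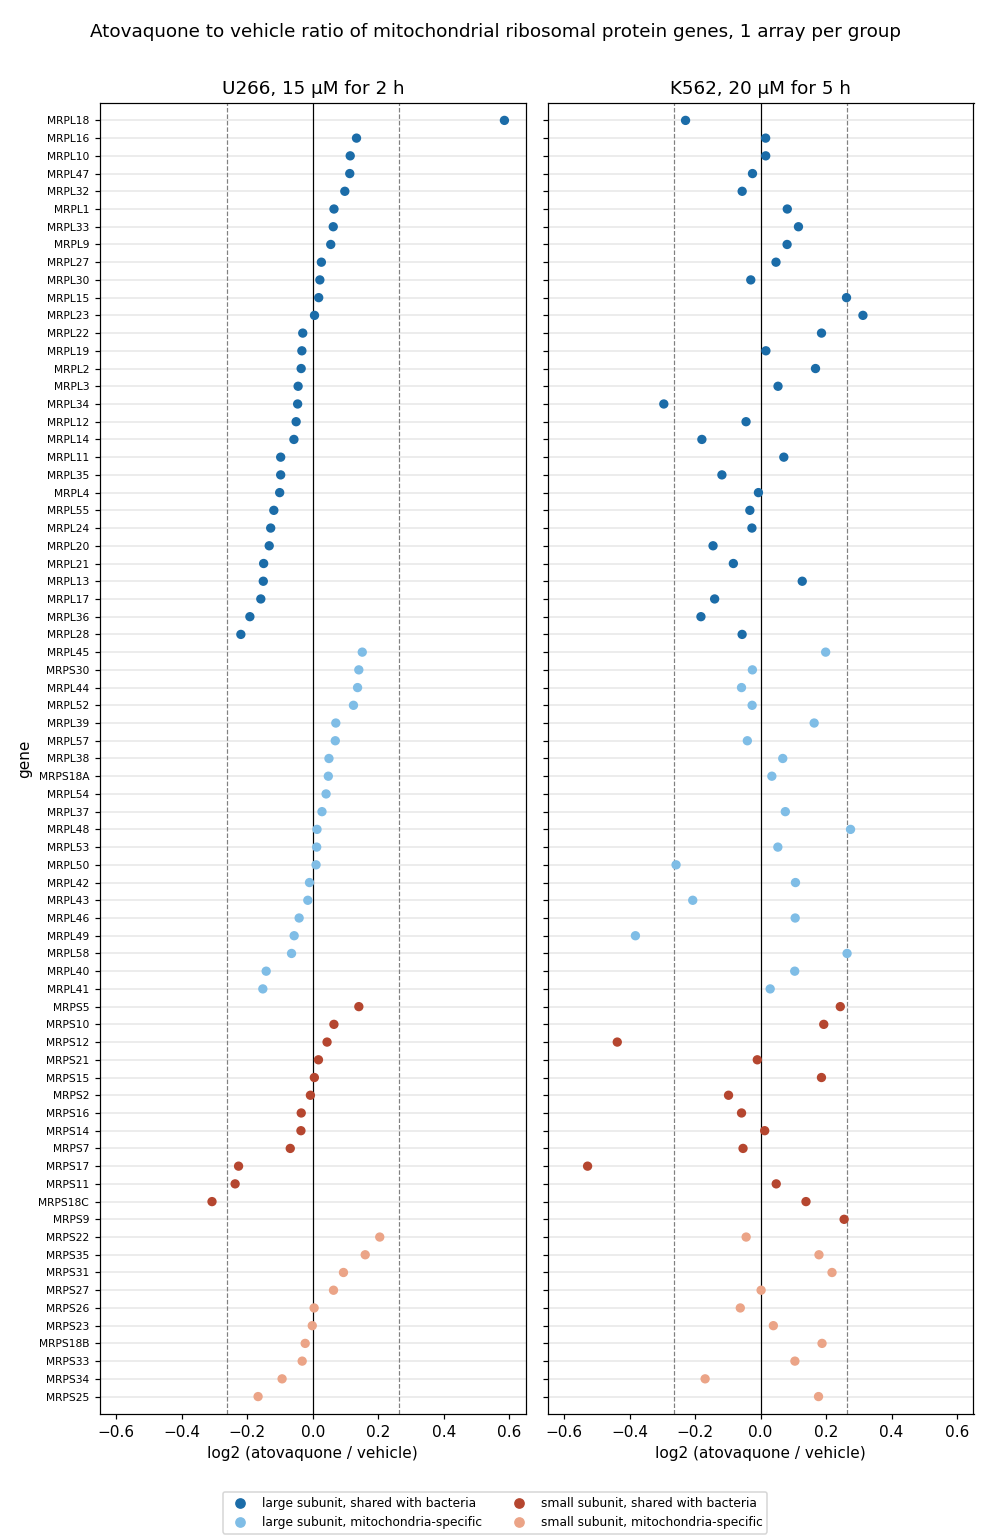
Log2 ratio of atovaquone to vehicle for the 72 members measured in each line, U266 on the left and K562 on the right, 1 point per gene (MRPS9 has none in U266 and MRPL54 none in K562), coloured by subunit and by presence in bacteria, with dashed lines at 1.2-fold. In U266 only MRPL18 (0.58) and MRPS18C (-0.31) lie outside the dashed lines, and 7 members do in K562.

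The neighbours across divergent promoters did not always match the member. Only some pairs are named here, and like signs were not counted over all pairs. Of the 66 members in the promoter table, 24 had a partner gene whose start lay within 1000 bases on the other strand, and 19 of these had a partner with a value. MRPS12 and SARS2, whose starts are 181 bases apart, had K562 log2 ratios of -0.44 and 0.43, and SARS2 went from 949 to 1277 there. Between the vehicle arrays the same pair was alike, at -0.91 and -0.85. MRPL49 and FAU, which encodes a cytosolic ribosomal protein fused to a ubiquitin-like protein, start 49 bases apart and had -0.38 and 0.06 in K562. MRPS18C and the helicase gene HELQ had -0.31 and 0.12 in U266, and 0.14 and -0.48 in K562. MRPL46 and MRPS11, both members, start 320 bases apart and had -0.04 and -0.24 in U266. MRPS18B had 0.19 in K562, where its partner PPP1R10, a regulator of protein phosphatase, had -1.501.

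The atovaquone comparisons of the lines share no array, though dose and time differ between them. Over 71 members measured on all 4 arrays, the ratios of the lines had a Pearson correlation of 0.089 and a Spearman correlation of 0.20, given as a description, since genes are not replicates. Without MRPL18 these were 0.23 and 0.25. The sign was the same for 40 members, or 56.3%, against 53.5% of all 9222 genes measured on the 4 arrays. Within 1.2-fold in both lines were 62 members, or 87.3%, against 77.2% of all genes. MRPS17 was the member with the lowest ratios in both lines together, at -0.23 and -0.53. MRPL36, MRPL17 and MRPL20 were also lower in both lines, with log2 ratios between -0.19 and -0.13. On the higher side MRPS35 had 0.16 and 0.18, MRPL45 0.15 and 0.20, MRPS5 0.14 and 0.24, and MRPS31 0.09 and 0.22. Among members with opposite signs, MRPL18, MRPS25, MRPS18C and MRPL13 were those whose smaller ratio was largest in size. MRPS25 had -0.17 in U266 and 0.18 in K562, and MRPL13 had -0.15 and 0.13.

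**Figure D3:**
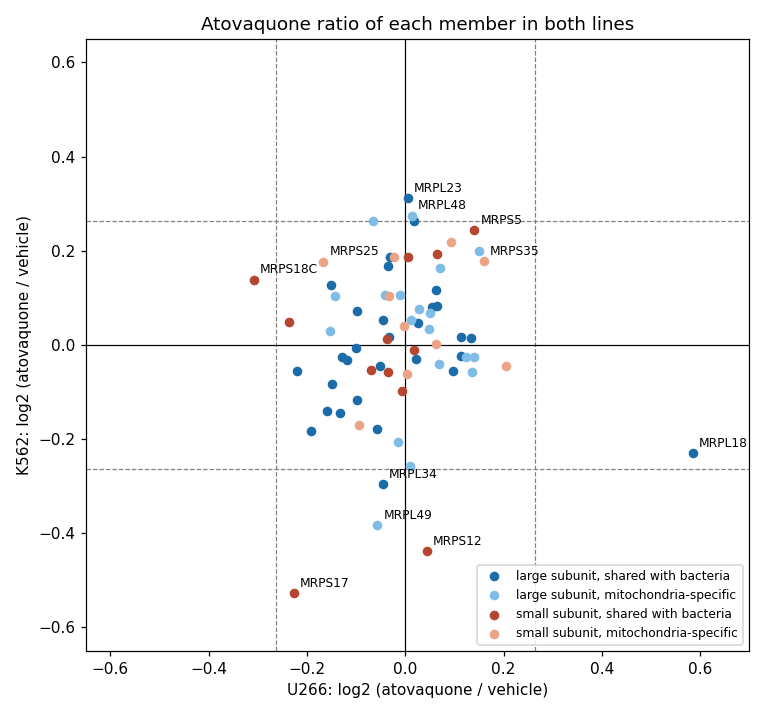
Log2 atovaquone ratio in U266 (x axis) against K562 (y axis), 1 point per member, coloured by subunit and by presence in bacteria, dashed lines at 1.2-fold. Most points sit inside the central square (62 of 71 members), MRPL18 lies far right at 0.58 and -0.23, and MRPS17 lies low at -0.23 and -0.53.

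The members' values were spread more widely between the vehicle arrays than after atovaquone, with an SD over members of 0.508 on the log2 scale against 0.758 over all genes, and most were lower in U266. This comparison uses the vehicle arrays that also enter both atovaquone comparisons, and its vehicle times were 2 h and 5 h. Values are log2 differences, U266 minus K562. Of 71 measured members, 5 exceeded 1.5-fold on the side of U266 and 18 on the side of K562, which is 7.04% and 25.4%, against 17.7% and 16.2% of all 9483 measured genes. At 2-fold the counts were 2 and 4, or 2.82% and 5.63%, against 7.97% and 6.97% of all genes. The median was -0.33 for the members and -0.0071 for all genes. Below 0 were 52 of the 71 members and 4791 of the 9483 genes, and above 0 were 26.8% against 49.5%. The median member intensity was 1523 on each U266 array, and 1971 and 2014 on the K562 vehicle and atovaquone arrays. Of the 71 members measured on all 4 arrays, 47 had both K562 arrays above both U266 arrays, 15 had the reverse order and 9 overlapped. These orders use uncentred intensities. They were not counted over all genes, so they show nothing particular to the members.

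The lowest members in U266 came from both subunits. MRPS31, of the small subunit, had 527 and 559 on the U266 arrays and 1376 and 1595 on the K562 arrays, each pair vehicle first, with a log2 difference of -1.36. MRPS35, also mitochondria-specific, had -1.15, and MRPL57 had -1.04. MRPL22, which lines the exit tunnel, had 870 in U266 vehicle and 1788 in K562 vehicle, with -1.01. MRPL1, of the mobile stalk, had -0.98. MRPL13 followed with -0.97, MRPL30 with -0.96 and MRPS30 with -0.95. All 8 had both K562 arrays above both U266 arrays, which their choice by the vehicle difference largely fixed in advance.

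The members higher in U266 were fewer. MRPL34 had 3780 and 3636 on the U266 arrays and 1614 and 1310 on the K562 arrays, a log2 difference of 1.25 or 2.38-fold. MRPL33 had 1069 and 1109 against 520.0 and 561.5, with 1.06. MRPL53 had 0.74, MRPL17 0.63 and MRPL43 0.59. MRPS33 had 0.45, MRPL27 0.39 and MRPS11 0.29. MRPL54 had 1869 and 1909 in U266 but was under the floor on both K562 arrays, at 286 and 250.05, so that it was at least 6.23-fold higher in U266 vehicle. That limit depends on the floor and was 1.57 on the log2 scale with the 60th percentile.

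**Figure D4:**
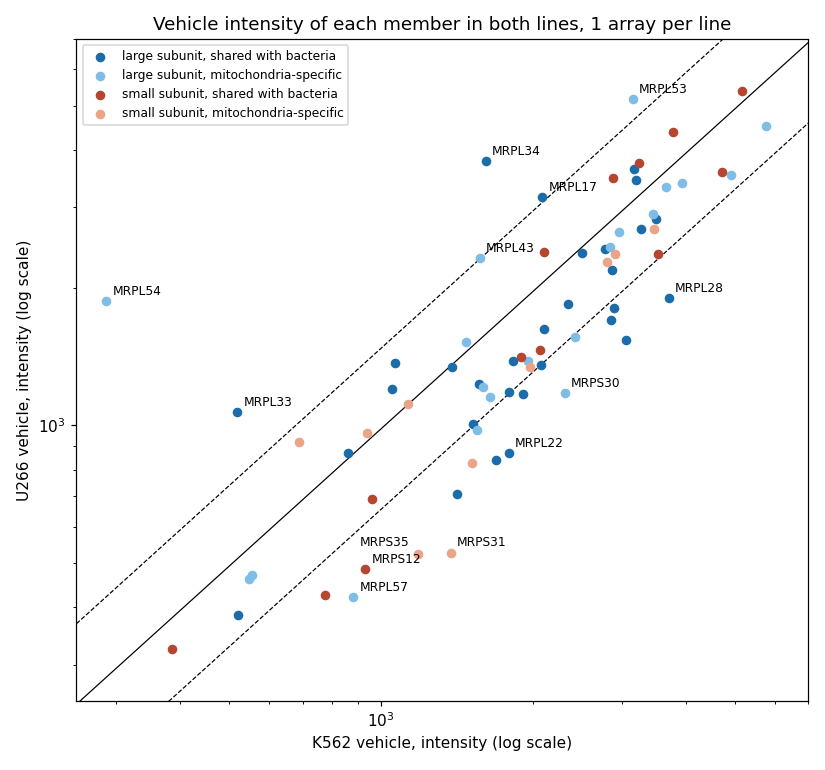
Intensity of each member on the U266 vehicle array (y axis) against the K562 vehicle array (x axis), both log scales, coloured by subunit and by presence in bacteria. The solid line marks equal centred values and the dashed lines 1.5-fold, and 18 members lie below the lower line while 5 measured members and MRPL54 lie above the upper line.

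The position of the genes in the genome gave the following values, with only some chromosomes named. On chromosome 13, MRPS31 and MRPL57 had a median difference of -1.20, and all 144 measured genes of that chromosome had -0.22. On chromosome 6 all 6 members were lower in U266, with a median of -0.42, while all genes there had -0.17. On chromosome 3 the 4 members had -0.39 where all genes had 0.19, and on chromosome 9 the 3 members had -0.19 where all genes had 0.14. All 4 members on chromosome 5 were lower in U266, with a median of -0.80, and all genes there had -0.062. The 2 members on chromosome 8 had -0.68 where all genes had 0.0088. On chromosome 10 both members were higher in U266, with a median of 0.40, and all genes had 0.02. With each gene set against the median of its own chromosome, an alternative chosen after seeing the data, the members' median was -0.30. Gene copy number in the lines was not measured here.

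The medians of the structural groups lay near 0 in both atovaquone comparisons. The large subunit had medians of -0.0025 in U266 (50 members) and 0.016 in K562 (49 members), and the small subunit had -0.0045 (22 members) and 0.039 (23 members). Between vehicle arrays the large and small subunits had -0.32 and -0.35. Members shared with bacteria had -0.035 in U266 and -0.0065 in K562, and mitochondria-specific members 0.012 and 0.053. The 8 members of the tunnel exit had medians of 0.038 and 0.070, with MRPL23 in K562 the single member past 1.2-fold (12.5% of 8, against 9.61% of all genes). The 8 of the central protuberance had -0.014 and 0.086, and those past 1.2-fold were MRPL18 in U266 (12.5%, against 4.06% of all genes) and MRPL48 and MRPL58 in K562 (25% against 9.61%). The stalk proteins MRPL10 and MRPL12 and the stalk base protein MRPL11, which recruit translation factors, stayed between -0.10 and 0.11 in both lines. The 3 homologues of bacterial S18 differed from each other in U266, where MRPS18A had 0.05, MRPS18B -0.02 and MRPS18C -0.31, and in K562 they had 0.03, 0.19 and 0.14.

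Ribosomal subunits with other symbols moved little. DAP3, which binds GTP in the small subunit, PTCD3, CHCHD1 and GADD45GIP1 were all within 1.2-fold in each comparison, and AURKAIP1 had no value. Of 25 assembly and RNA modification factors, 23 were measured in U266, with a median of -0.0032 and 3 at least 1.2-fold lower, or 13.0% against 3.08% of all genes. These were MPV17L2 at -0.33, the RNA methyltransferase gene MRM1 at -0.28 and the small subunit maturation factor RBFA at -0.27. In K562 the same list had 4 higher and 4 lower of 25, or 16% each way against 9.61% and 9.04% of all genes. It was led by the GTPase gene MTG1 at 0.44, METTL15 at 0.43 and MTERF3 at 0.42, with DDX28 at -0.34, MPV17L2 at -0.33 and MRM3 at -0.32 at the other end. Between vehicle arrays this list had a median of -0.33, near that of the members, and its ends were NSUN4 at -1.41 and YBEY at 1.39.

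The 16 translation factors and activators with a value had medians of 0.0026 in U266 and 0.078 in K562. The counts past 1.2-fold were 1 lower in U266, MTRFR at -0.27, and 1 higher in K562, the initiation factor gene MTIF3 at 0.30, which is 6.25% each, against 3.08% and 9.61% of all genes. In the list of 13 genes for transcription and replication of mitochondrial DNA, 3 were at least 1.2-fold lower in K562, or 23.1% against 9.04% of all genes. These were TRMT10C, a tRNA processing subunit, at -0.57, the transcription factor gene TFB2M at -0.49 and the helicase gene TWNK at -0.45. In U266 the single gene past 1.2-fold was MTERF1 at -0.30 (7.69% of 13, against 3.08% lower of all genes).

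Beside the members, the cytosolic ribosomal protein genes mostly lay slightly above 0 after atovaquone. Their median was 0.076 in U266, with 52 of 59 measured genes above 0 and 0 past 1.2-fold. In K562 it was 0.070, with 53 of 60 above 0 and 4 at least 1.2-fold higher, or 6.67% against 9.61% of all genes. These 4 were RPL26 and the ribosomal protein-like genes RPS27L, RPL39L and RPL10L, which the list also holds. The nuclear genes of the respiratory chain and ATP synthase had medians of -0.0076 in U266 and 0.054 in K562, with 53 of 72 above 0 in K562. Of all measured genes, 49.96% were above 0 in U266 and 48.8% in K562. Between vehicle arrays the cytosolic ribosomal proteins had -0.082 and the respiratory chain genes -0.073, against -0.33 for the members. The low median was not particular to the members. The list for transcription and replication of mitochondrial DNA had -0.40 there, with 10 of 13 genes below 0. The translation factors and activators had -0.14. No test of these differences was possible with 1 array per group. UQCRB, a subunit of the respiratory complex that atovaquone binds, had 419 and 937 in U266, a log2 ratio of 1.17. It was the only respiratory chain gene past 1.2-fold there, or 1.39% against 4.06% higher of all genes. CYC1 and the other measured UQCR genes of that complex lay between -0.08 and 0.06 in U266. In K562 UQCRB went from 394 to 274, under the floor, and was at least 1.28-fold lower.

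**Figure D5:**
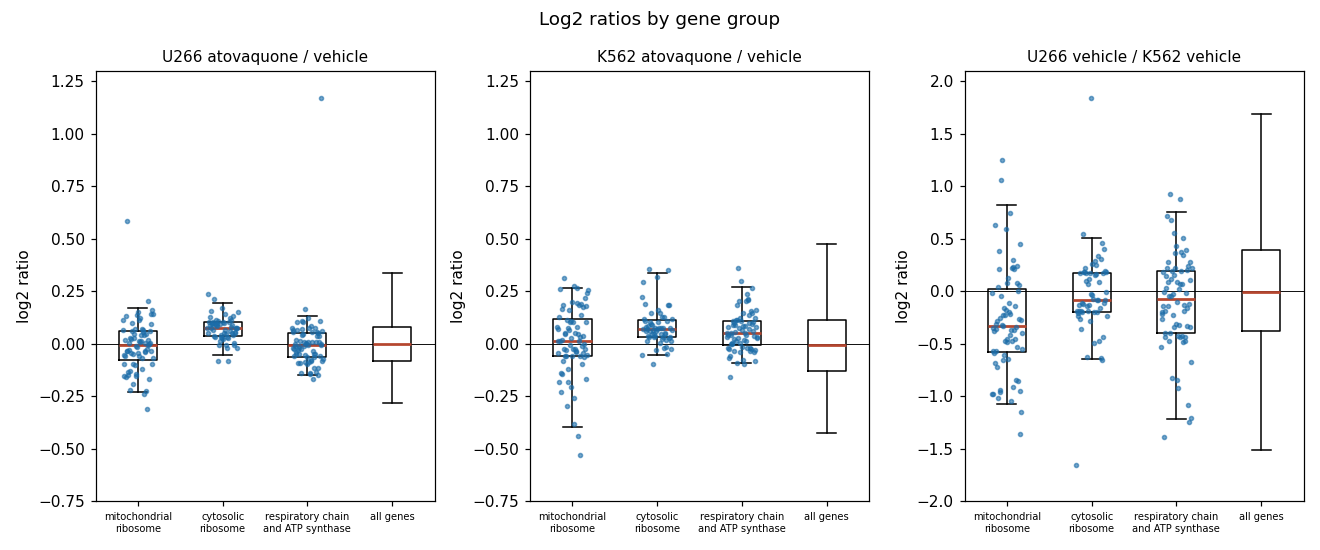
Log2 ratios by gene group in the atovaquone comparisons and between vehicle arrays; boxes span the middle 50% with the median in red, whiskers the central 95%, and points are single genes. The members centre near 0 in both atovaquone panels and at -0.33 between lines, where the cytosolic ribosome has -0.082 and the respiratory chain group -0.073. Other mitochondrial gene lists are not drawn.

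Some probe sets limit what can be said of a member. MRPL36 had 2 probe sets whose differences between vehicle arrays disagreed, at 0.16 and -0.65, while their U266 atovaquone ratios were -0.03 and -0.19, and the values above are from the probe set with the higher mean over the 4 arrays, which is the dimmer one on both U266 arrays. The 2 probe sets of MRPL20 and the 3 of MRPS18B held identical values and add no second measurement. MRPL51, MRPS6, MRPS24 and MRPS28 each share a probe set with another gene and have no value of their own.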

How the data were processed

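RNA from 4 samples was measured on 4 arrays, 1 per group, and groups were taken from the labels. The authors deposited 1 linear intensity per probe set, and the sources used here do not give the software, background correction or normalisation. From 33252 probe sets, those annotated with 1 symbol gave 18417 genes, each represented by its brightest probe set. Intensities were put on the log2 scale. Values under each array's 40th percentile of annotated probe sets were raised to it, and ratios were centred on the median of measured probe sets. Centring removes any change shared by most genes. Counts used 1.2-fold and 1.5-fold for atovaquone, and 1.5-fold and 2-fold between lines.

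Named members were the 6 highest and 6 lowest per line, the 8 highest and 8 lowest between lines, up to 4 per direction alike or opposite in both lines, the stalk, the MRPS18 homologues, and members with several probe sets. Members and gene lists were chosen with earlier results of these data known. The calculation was tested on simulated data. Alternatives were other floors, quantile normalisation, no centring, a loess trend, the mean of probe sets and inclusion of shared probe sets. Promoters and gene neighbours came from RefSeq (GRCh38.p14). The files' own build was not used. Python 3.11.15, numpy 2.4.6 and pandas 2.3.3 were used. The number of arrays limits the precision.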

Additional observations from a re-analysis of the deposited data

Results flagged for a closer look

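MRPL18 had opposite signs in the lines, with a log2 ratio in U266 minus that in K562 of 0.81. The same kind of difference was -0.45 for MRPS18C, -0.34 for MRPS25 and -0.28 for MRPL13. These differences were not tested, and dose and time differed between the lines.

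Signals also appeared in probe sets outside the counts above. KGD4, formerly MRPS36 and now counted as a subunit of the oxoglutarate dehydrogenase complex, went from 449 to 642 in K562, a log2 ratio of 0.52. The probe set of the pseudogene MRPS31P5 went from 288, under the floor, to 472 in K562, a lower bound of 0.63 on the log2 scale or at least 1.55-fold. The probe set shared by MRPS6 and SLC5A3, an inositol transporter gene, went from 1335 to 2368 in U266, a log2 ratio of 0.84, and the genes cannot be told apart there. Its K562 values were 2043 and 2128.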

How the results depend on the processing

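The count at 1.2-fold in U266 ranged from 1 to 3 over the alternatives, against 2 as reported. With the floor at the 60th percentile, 1 member was at least 1.2-fold different in U266 (MRPL18, 1 higher and 0 lower of 62 measured, MRPS18C being under that floor). The count at 1.2-fold in K562 (6 to 8) and at 1.5-fold between lines (16 to 26) stayed within 1.5 times its value under each alternative run. Counts at the larger folds and within lists were not recomputed. The members' median ranged from -0.018 to 0.00212 in U266, from 0.011 to 0.026 in K562 and from -0.38 to -0.29 between lines. Of 976 values of named members under alternatives, 970 moved by less than the spread of a single probe set and 6 moved further. The sign changed in 9, all with a size of at most 0.135 as reported, so 0 of them were past 1.2-fold. With the 60th percentile floor the values that moved were MRPS17 in U266 (-0.04) and, between lines, MRPL54 (1.57), MRPL57 (-0.35), MRPS12 (-0.43) and MRPS18C (-0.16) as bounds. With the mean of probe sets MRPL36 had -0.24 between lines. MRPL18 in U266 stayed between 0.57 and 0.59, on either side of 1.5-fold, so that with a lower floor it passed that fold. No paired analysis was possible because each group has 1 array and the labels give no replicate numbers, and for the same reason no replicate could be left out.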
